A study of Triticum aestivum with 20 samples.

Results

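Histone H2A was followed here through 16 of the 28894 probe sets of the Affymetrix wheat array, which are not all of its H2A probe sets. This family of genes was picked with earlier results of these data known, and the 16 were taken by the start of their identifiers alone. Of these, 14 belong to 1 sequence cluster of the array with 11 subclusters, from Ta.27657.1 to Ta.27657.14, referred to as the H2A-9 group, and 2 to Ta.27192.1 (H2A-3). The annotation names 6 of the 14 as H2A-9 (Ta.27657.1.S1_at, Ta.27657.6.S1_x_at, Ta.27657.7.S1_x_at, Ta.27657.12.S1_at, Ta.27657.14.S1_s_at and Ta.27657.14.S1_x_at) and both members of Ta.27192.1 as H2A-3. The other 8 have no name in it and were taken in by their cluster alone. In such identifiers the suffix _x_at marks probes that can also match other transcripts, and _s_at marks probes shared by several transcripts. These suffixes stand on 8 and 2 of the members. Since the family members are alike in sequence, signals of separate genes could not be fully told apart and the probe sets are not independent measurements.

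H2A is a core histone. It pairs with H2B, and these dimers sit on a tetramer of H3 and H4 to form the nucleosome around which DNA is wrapped. Most H2A messages of dividing plant cells are made while DNA is being replicated, and their level falls once cells leave the division cycle, while variant forms of H2A are made at other times. In anthers, divisions of the wall layers and of the sporogenous cells come before meiosis, and the microspores divide again after it.

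Anthers came from BS366, a thermo-sensitive genic male sterile line of wheat whose pollen fails after a cold period. All plants had been vernalized naturally in the field and were then held for 5 days under 1 of 4 conditions, after which they grew on at 20 °C with 12 h of light. The cold conditions were 10 °C with 12 h (A) or 14 h (B) of light, and the control conditions were 20 °C with 12 h (E) or 14 h (F). The study's text also gives another cold temperature elsewhere, so the labels were followed. Anthers were sampled at lengths of 1.5, 2.0, 2.2, 2.5 and 3.0 mm, which name the 5 stages, with 1 array for each condition and stage, 20 arrays in all. Each temperature and stage therefore held 2 arrays, which differ in day length, and neither pot nor plant numbers per array are given. Nothing says that arrays came from separate batches of plants, so p-values measure only the spread between these arrays.

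The deposited values are log2 expression values, and every level or difference below is on that scale unless a fold is named. Array medians lay between 6.14 and 6.46. The 2 control arrays of stage 3.0 stood apart from the rest. The correlation between them was 0.971, that with any other array 0.547 to 0.712, and that among the remaining arrays 0.666 or more, so the results that use these 2 arrays are also given without them where a value can be had. F of stage 2.5 also lay somewhat apart. It held the lowest of these remaining correlations, and its highest with any array was 0.920, against 0.950 or more for every other array. A stage is a length, so an effect of cold and a development that lags behind length cannot be told apart. Anthers are mixtures of cells, and fewer cells of a type cannot be told apart from less RNA per cell.

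One member was dim. Ta.27192.1.S1_s_at (H2A-3) lay between 3.05 and 5.28 and was above the 60th percentile of its array in 0 of 20 arrays. In 10 arrays it held the same value, 4.45, so its course was set aside and it was not tested. The other 15 members were above the 60th percentile in all 20 arrays, and no array value of theirs was repeated. The member nearest that limit was Ta.27657.12.S1_at in F at stage 3.0, at percentile 63.4, where its level was 7.33. All 15 passed the filter on low values, which kept 13805 probe sets for testing.

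**Figure D1:**
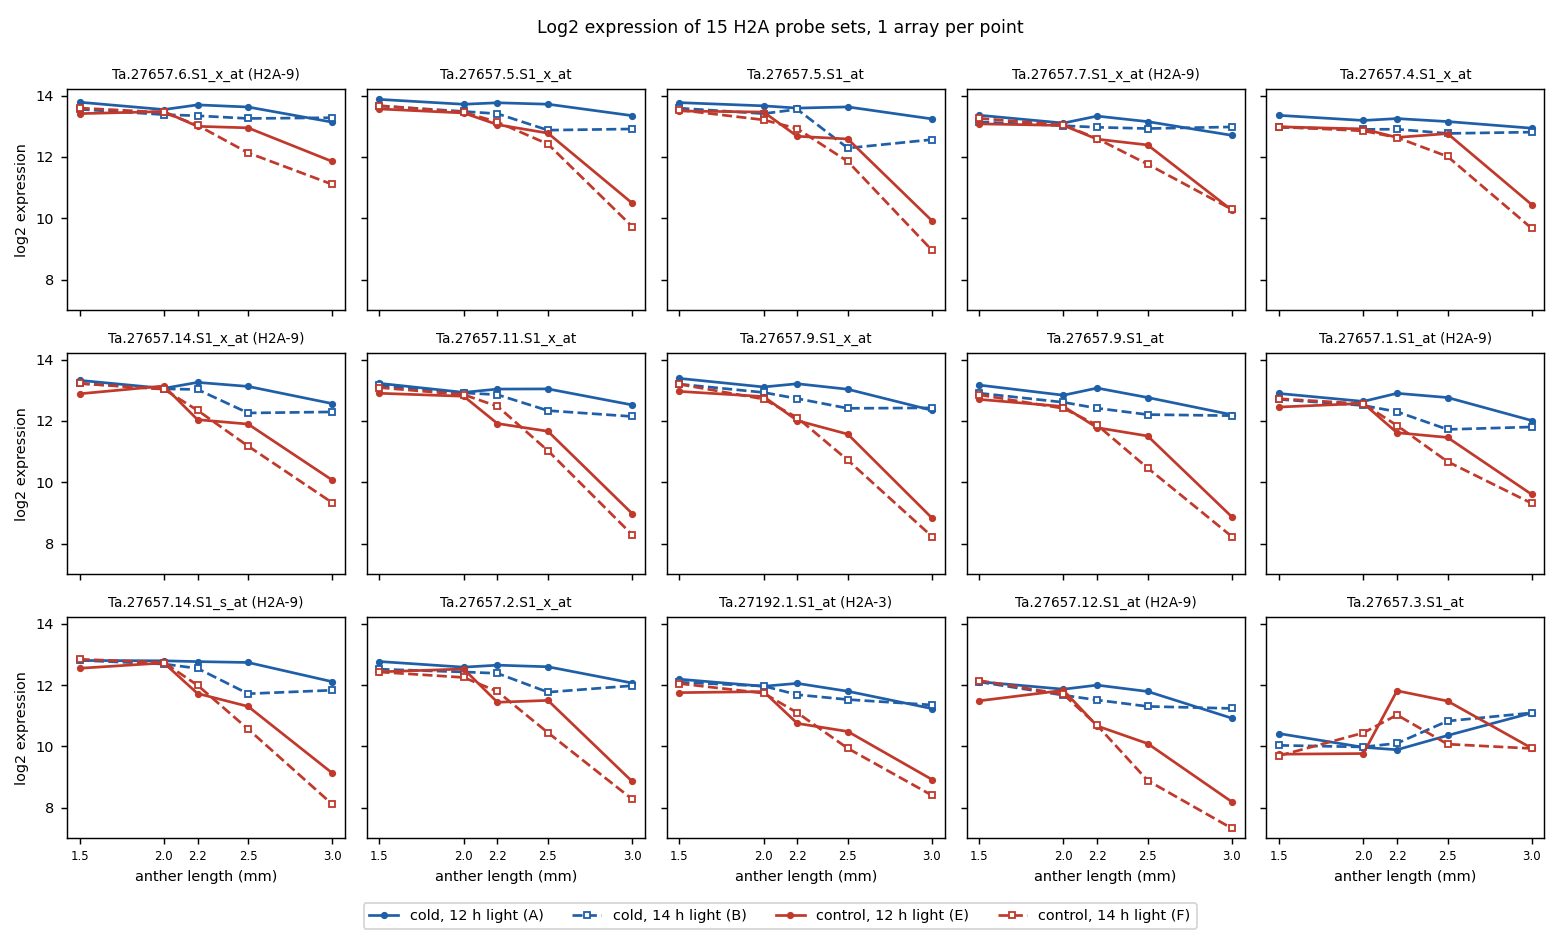
Log2 expression (vertical axis) against anther length in mm (horizontal axis) for the 15 H2A probe sets above the 60th percentile, 1 point per array. Blue lines are cold (A with 12 h, solid, and B with 14 h, dashed) and red lines control (E and F): in 14 panels the red lines end far below the blue ones at 3.0 mm, and in the panel of Ta.27657.3.S1_at the red lines peak at 2.2 mm.

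In control anthers, transcripts of H2A-9 and H2A-3 fell as anthers grew, and 14 of the 15 members were lower at stage 3.0 than at stage 1.5. A probe set is called here when its adjusted p is under 0.05 (limma, Benjamini-Hochberg over all 13805) and its change is at least 2-fold. Of all probe sets tested, 15.6% were called lower in this comparison. The 14 changes ran from -2.02 to -4.54, against a median of -0.13 over all probe sets tested. On the linear scale the control anthers of stage 3.0 held 4.29% to 24.6% of the stage 1.5 level, with a median of 7.87% over these 14 members.

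H2A-3, measured by Ta.27192.1.S1_at, showed the course in full. Under control conditions its levels in E and F were 11.75 and 12.05 (1.5 mm), 11.79 and 11.74 (2.0 mm), 10.75 and 11.10 (2.2 mm), 10.49 and 9.94 (2.5 mm), and 8.92 and 8.41 (3.0 mm). Both day lengths went down from stage 2.0 on, and the arrays of stage 3.0 lay below every other array of this probe set. The change from stage 1.5 to 3.0 was -3.24 ± 0.21 (SE, adjusted p = 1.5e-07, limma), a 9.42-fold fall. Under cold conditions the levels in A and B were 12.19 and 12.09 (1.5 mm), 11.96 and 11.97 (2.0 mm), 12.06 and 11.69 (2.2 mm), 11.80 and 11.53 (2.5 mm), and 11.23 and 11.35 (3.0 mm). The cold arrays drifted down by less than 1 log2 unit (-0.85 ± 0.21, adjusted p = 0.021, limma, under 2-fold), and both lay above both control arrays at every stage, with mean differences of 0.24 and 0.20 at stages 1.5 and 2.0.

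Within the H2A-9 group, Ta.27657.9.S1_x_at had the steepest control course and Ta.27657.6.S1_x_at (H2A-9) the flattest of those called. For Ta.27657.9.S1_x_at the control levels in E and F were 12.96 and 13.20 (1.5 mm), 12.80 and 12.71 (2.0 mm), 12.01 and 12.11 (2.2 mm), 11.57 and 10.72 (2.5 mm), and 8.84 and 8.24 (3.0 mm). Its cold levels in A and B were 13.39 and 13.20, 13.11 and 12.93, 13.21 and 12.73, 13.03 and 12.41, and 12.35 and 12.43 at the same stages. The lowest cold array of this probe set thus lay above every control array of the 3 later stages. For Ta.27657.6.S1_x_at the control levels in E and F were 13.41 and 13.59, 13.48 and 13.45, 12.996 and 13.03, 12.95 and 12.13, and 11.85 and 11.11. Its cold levels in A and B were 13.78 and 13.55, 13.54 and 13.38, 13.70 and 13.34, 13.63 and 13.25, and 13.13 and 13.28. The 2 probe sets moved the same way, with control changes from stage 1.5 to 3.0 of -4.54 ± 0.23 for Ta.27657.9.S1_x_at (adjusted p = 2.5e-08) and -2.02 ± 0.22 for Ta.27657.6.S1_x_at (adjusted p = 1.2e-05, limma for both).

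The step from stage 2.5 to 3.0 held 42.6% to 79.7% of this control decline (median 57.5%). Its share was above 50% for 12 of the 14 members and below it for H2A-3 (47.8%) and Ta.27657.12.S1_at (H2A-9; 42.6%). In that step 14 members were called lower (12.4% of all tested), by 1.06 to 2.78 log2 units, and no member was called by limma in any earlier control step (0%, 4.83% and 0.0145% of all tested). At an unadjusted p under 0.05 these earlier steps gave 0, 11 and 11 members, against 971, 3446 and 1507 of the 13805 probe sets tested. For the step from 2.0 to 2.2, Ta.27192.1.S1_at (H2A-3) alone had an adjusted p under 0.05 (-0.84 ± 0.21, adjusted p = 0.036, limma), short of 2-fold. Over any control step, 14 members were called (22.6% of all tested, either direction). Without the 2 control arrays of stage 3.0 this count was 0, since the last step could then not be tested.

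Under cold conditions the decline was shallow. From stage 1.5 to 3.0, 0 of 15 members were called by limma (9.85% of all tested, either direction). Yet 13 had an unadjusted p under 0.05, against 4693 of the 13805 tested, and 6 had an adjusted p under 0.05. The cold changes of the 14 members that fell in control anthers ran from -0.29 to -1.03, the largest being that of Ta.27657.12.S1_at (H2A-9; -1.03 ± 0.34, adjusted p = 0.058). These 14 kept 49.1% to 82.0% of their stage 1.5 level on the linear scale, with a median of 55.9%. No member was called in any cold step (0.5% of all tested), and 0 had an unadjusted p under 0.05 in any of the 4 steps. Over all 13805 tested, 194 to 1713 did so in a single step. For each of the 14, the cold mean of stage 3.0 lay between the control means of stages 2.0 and 2.2, which is a description of the means and was not tested.

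**Figure D2:**
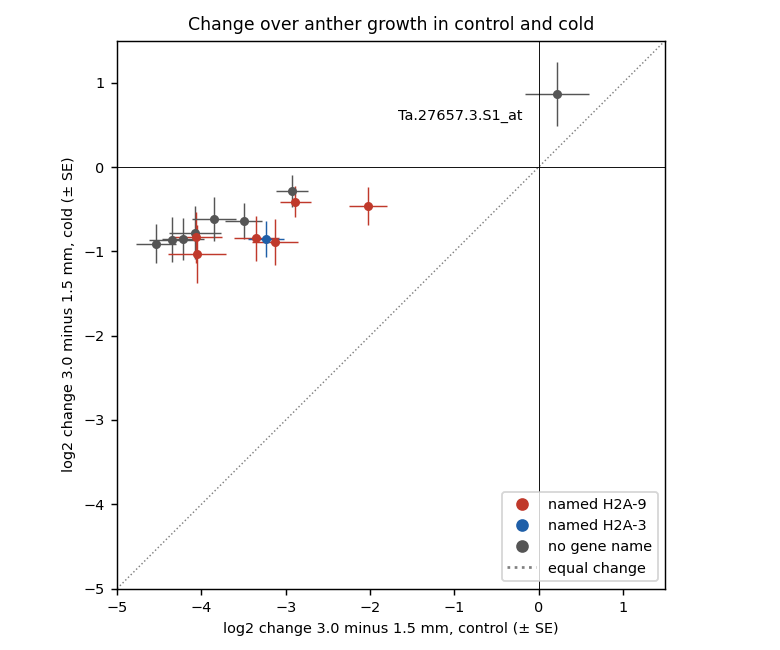
Log2 change from stage 1.5 to stage 3.0 in control (horizontal axis) against cold (vertical axis), 1 point per probe set with limma estimates ± SE, and a dotted line for equal changes. The 14 points with control changes of -2.02 to -4.54 had cold changes of -0.29 to -1.03, and Ta.27657.3.S1_at lay near 0 in control (0.22) and above it in cold (0.87).

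The comparison of cold with control at each stage asked when the courses parted. At stages 1.5 and 2.0, 0 of 15 members were called by limma (0.283% and 0% of all tested). With an unadjusted p under 0.05 there were 0 at either stage, against 1201 and 581 of the 13805 tested. The differences ran from 0.08 to 0.50 at stage 1.5 and from -0.13 to 0.28 at stage 2.0. Both cold arrays were above both control arrays for 8 members at stage 1.5 (27% of all tested) and for 5 at stage 2.0 (19.9% of all tested).

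At stage 2.2 most differences were under 2-fold but ran one way, since both cold arrays lay above both control arrays for 14 of 15 members (36.9% of all tested). All 15 had an unadjusted p under 0.05 (limma), against 4881 of the 13805 tested. Only Ta.27657.12.S1_at (H2A-9) was called higher (4.53% of all tested), at 1.08 ± 0.34 (adjusted p = 0.043, limma). Its levels at this stage were 12.00 in A and 11.51 in B against 10.67 in E and 10.69 in F. Ta.27657.3.S1_at was called lower (7.47% of all tested), and 7 more members had an adjusted p under 0.05 with less than 2-fold, among them H2A-3 at 0.95 ± 0.21 (adjusted p = 0.0094). The median over the 15 members was 0.79, against 0.11 over all tested. The count of 2 rested on single arrays. It was 9 without F at stage 2.2 and 0 without A or without E at that stage, and 1 when either array of stages 1.5 and 2.0 in the cold, of stage 2.0 in the control, or B of stage 2.2 was left out.

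By stage 2.5, 9 members were called higher in the cold (5.84% of all tested) and 0 lower (10.6% of all tested). The 9 were H2A-3 (Ta.27192.1.S1_at, 1.45 ± 0.21, 2.73-fold, adjusted p = 0.00048), 4 probe sets named H2A-9 and 4 of the cluster without a name. Among those named, Ta.27657.12.S1_at differed most, with 11.79 in A and 11.30 in B against 10.09 in E and 8.89 in F. Ta.27657.6.S1_x_at and Ta.27657.7.S1_x_at, also H2A-9, were 0.90 ± 0.22 (adjusted p = 0.010) and 0.96 ± 0.18 (adjusted p = 0.0023) higher, both under 2-fold. Of the 6 members not called, 4 had an adjusted p under 0.05. Ta.27657.5.S1_at (0.74 ± 0.31, adjusted p = 0.093) and Ta.27657.3.S1_at (-0.18 ± 0.38, adjusted p = 0.75) did not. The count of 9 was 5 when A or F of stage 2.5 was left out.

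At stage 3.0 all 15 members tested were called higher in the cold (13.9% of all tested), from 2.23-fold to 14.4-fold. The median difference was 3.01, against -0.00 over all probe sets tested. Both cold arrays were above both control arrays for all 15 members, which was so for 33.8% of all probe sets tested. The largest differences were those of Ta.27657.9.S1_x_at (3.85 ± 0.23, adjusted p = 7.8e-08), Ta.27657.11.S1_x_at (3.69 ± 0.27, 12.9-fold, adjusted p = 3.3e-07) and Ta.27657.9.S1_at (3.63 ± 0.25, 12.4-fold, adjusted p = 2.2e-07). Ta.27657.11.S1_x_at, which has no gene name, read 12.52 in A and 12.15 in B against 8.99 in E and 8.30 in F. For H2A-3 the difference was 2.63 ± 0.21 (6.18-fold, adjusted p = 8.9e-07). All of these differences use the 2 control arrays that stood apart, and no value can be had at this stage without them.

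**Figure D3:**
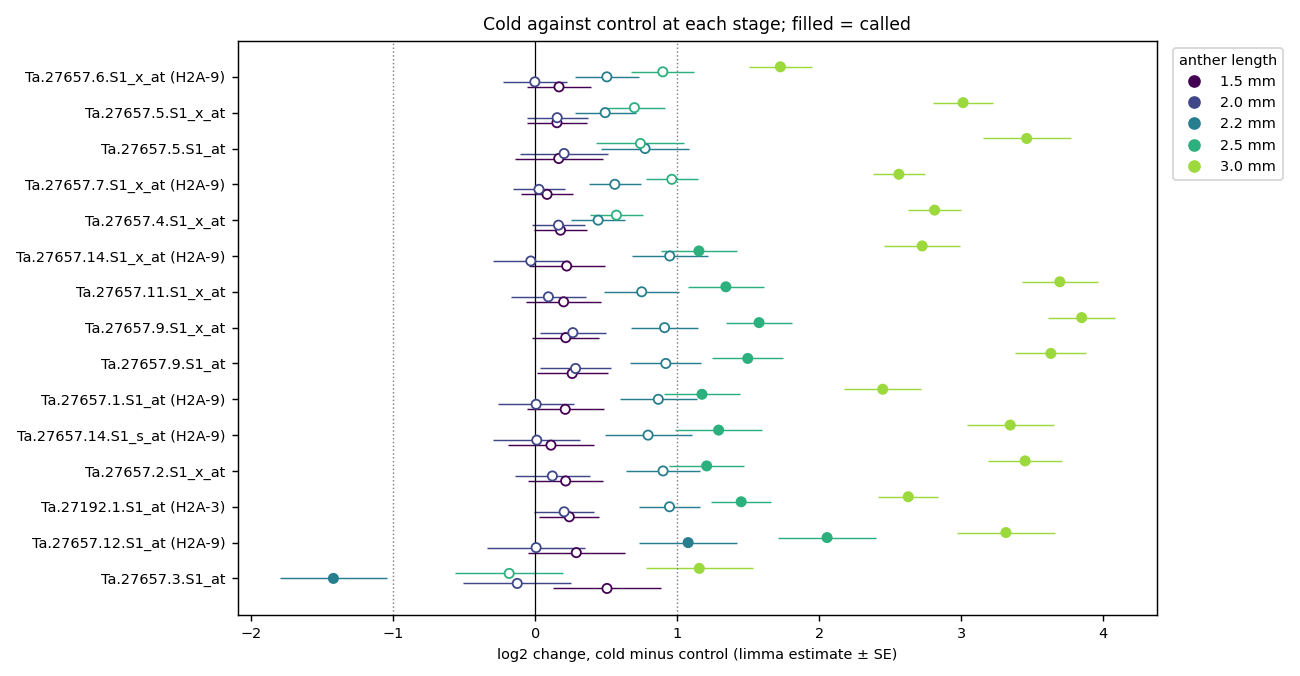
Cold minus control log2 change (horizontal axis, limma estimate ± SE) for each of the 15 probe sets (vertical axis), with 1 colour per anther length and filled points for calls. Dotted lines mark 2-fold in either direction. No point of 1.5 or 2.0 mm is filled, 9 points of 2.5 mm and all 15 of 3.0 mm are, and the 3.0 mm points run from 1.16 to 3.85.

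The widening was also tested as a single contrast, the mean cold effect over the 3 later stages minus that over the 2 earlier ones. In 13 of 15 members the later effect was higher (5.9% of all tested), by 1.11 to 2.00. Ta.27657.12.S1_at (H2A-9) had the largest value (2.00 ± 0.31, adjusted p = 0.00089) and H2A-3 a value of 1.45 ± 0.19 (adjusted p = 0.00033, limma). Ta.27657.6.S1_x_at was at 0.96 ± 0.20 (adjusted p = 0.0053), under 2-fold, and Ta.27657.3.S1_at at -0.34 ± 0.35 (adjusted p = 0.53). Without the control arrays of stage 3.0, which leaves stages 2.2 and 2.5 as the later ones, 2 of the 13 were still called, namely Ta.27657.12.S1_at (1.42, adjusted p = 0.022) and Ta.27657.9.S1_x_at (1.004, adjusted p = 0.022).

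Ta.27657.3.S1_at, a member of the H2A-9 cluster without a gene name, took a course of its own. It was singled out after its values were seen, so its contrast with the other 14 is a description only. In control anthers its levels in E and F were 9.75 and 9.70 (1.5 mm), 9.77 and 10.44 (2.0 mm), 11.81 and 11.03 (2.2 mm), 11.48 and 10.08 (2.5 mm), and 9.94 and 9.93 (3.0 mm). In cold anthers its levels in A and B were 10.42 and 10.04, 9.97 and 9.98, 9.89 and 10.10, 10.36 and 10.83, and 11.09 and 11.09. The control arrays were highest at stage 2.2 and back near their first level at stage 3.0, while the cold arrays were highest at stage 3.0. The control change from stage 1.5 to 3.0 was 0.22 ± 0.38 (adjusted p = 0.68), the cold one 0.87 ± 0.38 (adjusted p = 0.13), and the control step from 2.0 to 2.2 was 1.31 ± 0.38 (adjusted p = 0.056).

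The cold effect on Ta.27657.3.S1_at changed sign between stages. It was 2.68-fold lower in the cold at stage 2.2 (-1.42 ± 0.38, adjusted p = 0.021) and 2.23-fold higher at stage 3.0 (1.16 ± 0.38, adjusted p = 0.027, limma). At stage 2.2 both cold arrays lay below both control arrays, as in 25.1% of all probe sets tested. At stage 2.5 the arrays were not in order, with A 1.12 below E and B 0.75 above F. Both calls were lost in some settings: the stage 3.0 call with a photoperiod term for each stage (adjusted p = 0.059) and without any 1 of the arrays of that stage (adjusted p from 0.068 to 0.127), and the stage 2.2 call with the same term (adjusted p = 0.0503) and without A, B or E of stage 2.2 (adjusted p = 0.130, 0.066 and 0.188).

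Across the 20 arrays the other 14 members kept close to each other. Their 91 pairs correlated at 0.93 or more (median 0.98), and H2A-3 correlated at 0.94 to 0.99 with the 13 of the H2A-9 group. Ta.27657.3.S1_at correlated with the 14 at -0.10 to 0.15. Without the 2 control arrays of stage 3.0 the 91 pairs correlated at 0.82 to 0.99 (median 0.95), H2A-3 with the 13 at 0.86 to 0.99, and Ta.27657.3.S1_at with the 14 at -0.58 to -0.29, over 18 arrays. These values are descriptions over the same arrays, whose stages and temperatures all members share, as they may share target transcripts.

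Pairs of probe sets from 1 subcluster gave similar but not equal cold effects. In subcluster 5 the effect at stage 3.0 was 3.46 ± 0.31 for Ta.27657.5.S1_at and 3.01 ± 0.21 for Ta.27657.5.S1_x_at. In subcluster 14, both named H2A-9, it was 3.35 ± 0.31 for Ta.27657.14.S1_s_at and 2.72 ± 0.27 for Ta.27657.14.S1_x_at. In subcluster 9 it was 3.63 ± 0.25 for Ta.27657.9.S1_at and 3.85 ± 0.23 for the _x_at set. Differences within these pairs were not tested. Over 20 arrays the pairs correlated at 0.99 or more, and over the 18 arrays without control stage 3.0 at 0.97 or more.

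No difference between the day lengths was called for any H2A member. Over the 5 stages, 0 of 15 members were called between 14 h and 12 h in control anthers (0.174% of all tested), in cold anthers (0.464%) or for the difference between the effects (0.0217%), all by limma. At an unadjusted p under 0.05 the counts were 1, 4 and 0, against 2551, 3904 and 3315 of the 13805 probe sets tested. Without the 2 control arrays of stage 3.0, 0 members were called in each of these tests as well. Averaged over stages, levels were lower with 14 h for 15 of 15 members in control anthers, by 0.08 to 0.33, and for 14 of 15 in cold anthers, where changes ran from -0.50 to 0.06. The control average did not hold at each stage. F minus E was positive for 13 of 15 members at stage 1.5 (median 0.18) and at stage 2.2 (median 0.10), for 5 at stage 2.0 (median -0.05), for 0 at stage 2.5 (median -0.75) and for 1 at stage 3.0 (median -0.69). The members were not independent, so these shared signs are not separate observations.

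By the median over members, the day lengths were farthest apart at stage 2.5 at both temperatures. Under cold conditions the single arrays of this stage differed (B minus A) by -1.34 to 0.47, with a median of -0.62, and 3 members were at least 2-fold lower in B (11% of all tested). Under control conditions F minus E ran from -1.40 to -0.36, and 4 members were at least 2-fold lower in F (5.06% of all tested). For Ta.27657.5.S1_at, a member without a gene name, the levels at stage 2.5 were 13.63 in A and 12.29 in B, and at stage 3.0 they were 13.24 and 12.56. The stage with the lowest level was 3.0 in A for 14 members, but in B it was 2.5 for 10 members and 3.0 for 4. The medians of these whole arrays were also lower in B, at 6.19 (2.5 mm) and 6.14 (3.0 mm), against 6.33 and 6.38 in A. These B medians were the lowest of all arrays. With 1 array for each of these conditions and stages, no test of these single-stage differences was made.

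The cold effect was also taken within each day length, from single arrays and with no test. At stage 1.5 it was positive for 15 of 15 members with 12 h (A minus E, median 0.37) and for 8 of 15 with 14 h (B minus F, median 0.0037). At stage 2.0 it was positive for 14 and 9 members, with medians of 0.13 and 0.02. The share of all tested with a positive difference was not taken at either stage, and the members are not independent. At stage 2.2 the median over 15 members was 1.12 with 12 h (A minus E, 9 members at least 2-fold higher, against 11.1% of all tested) and 0.55 with 14 h (B minus F, 0 members, against 6.38%). At stage 2.5 the medians were 1.23 and 1.15, with 10 and 11 members at least 2-fold higher (7.95% and 11.8% of all tested). At stage 3.0 all 15 members were at least 2-fold higher in both (16.4% and 15.7% of all tested), with medians of 2.72 and 3.18.

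Other histone genes that the annotation names are 1 further H2A and 9 probe sets of H2B, the partner of H2A in its dimer. H2A-2 (Ta.29542.1.S1_x_at) was 0.59 higher in the cold at stage 2.2 (adjusted p = 0.41), 1.99 higher at stage 2.5 (adjusted p = 0.0090) and 3.76 higher at stage 3.0 (adjusted p = 4.5e-05). Of the H2B probe sets, named wcH2B-6 and wcH2B-8, 0 of 9 were called at stage 2.2 by limma. With an unadjusted p under 0.05 there were 2, against 4881 of the 13805 tested. Of the 9, 6 were called higher at stage 2.5 (5.84% of all tested) and 9 at stage 3.0 (13.9%). At stage 3.0 their median was 2.15 and their range 1.29 to 3.05. All 9 were called lower at stage 3.0 than at 1.5 in control anthers (15.6% of all tested), and 2 in cold anthers (4.98%). Lists for H3, H4 and linker histones and for genes of DNA replication matched 0 of the 845 probe sets that carry a symbol. Symbols written otherwise than in the lists would be missed, so no statement on these genes is made.

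The probe sets most like the H2A members were found by Pearson correlation over the 20 arrays. Those closest to Ta.27657.6.S1_x_at were Ta.7378.29.S1_at (0.99), Ta.7378.8.S1_at (0.99) and Ta.7378.8.S1_x_at (0.99), which carry no name but share their cluster with probe sets of wcH2B-8 such as Ta.7378.17.S1_x_at. Those closest to H2A-3 were Ta.10329.30.S1_x_at (0.99) and Ta.24920.1.S1_x_at (0.99), the latter annotated only as LOC606312. Ta.28691.1.A1_x_at was among the 10 closest to both, and no other of these probe sets was. Without the 2 control arrays of stage 3.0, 5 of the 10 closest to Ta.27657.6.S1_x_at and 4 of the 10 closest to H2A-3 were still among the 10 closest, with correlations of 0.95 or more for all those listed.

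Some markers of the cell types in an anther also moved over the 5 stages. The tapetum is the wall layer that feeds the microspores, and raftin coats the particles it secretes. All 4 raftin probe sets were detected in every group. Their median rose from 10.9 to 13.4 between stages 1.5 and 3.0 in control anthers and from 9.74 to 12.4 in cold anthers, and they were called lower in the cold in 4 of 4 cases at stage 2.2 (7.47% of all tested), 1 at stage 2.5 (10.6%) and 0 at stage 3.0 (13.3%; 1 at an unadjusted p under 0.05, limma). Of 16 probe sets for green tissue, 9 were tested, and 5, 5 and 2 were called lower in the cold in the 3 later stages in turn, against the same shares of all tested. At stages 1.5 and 2.0, 0 raftin and 0 green tissue probe sets were called by limma (0.283% and 0% of all tested, either direction). At an unadjusted p under 0.05 (limma), stage 1.5 gave 3 of each, and stage 2.0 gave 0 and 1. Over all 13805 tested, 1201, 581 and 6681 did so at stages 1.5, 2.0 and 3.0. The median cold difference of raftin was -1.30 at stage 1.5, against -0.96 at stage 3.0. Both probe sets for profilin, an actin-binding protein abundant in pollen, stayed between 11.6 and 12.3 in every group, with 0 called between cold and control and 0 at an unadjusted p under 0.05 (limma; differences of -0.19 to 0.16). The part of these cell types in the H2A differences was not tested.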

How the data were processed

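Total RNA of 20 anther samples was labelled with biotin and hybridized to Affymetrix wheat arrays, 1 array per sample. The authors deposited log2 values in 1 table. The labels name MAS5, without version or settings, and how arrays were scaled to each other is not stated there. The lowest value was 2.28 in each of the 20 arrays, and 11.3% of the probe sets tested held 3 or more equal values. What gave these equal values was not tested. The 1 reporter control among 28895 entries was removed. Testing was limited to the 13805 probe sets that exceeded their array's 60th percentile in both arrays of some temperature and stage. Values were used as deposited.

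Tests used limma 3.58.1 in R 4.3.3, with a mean for each temperature and stage, a common photoperiod term (9 residual degrees of freedom) and a variance trend. Photoperiod was tested in a model with a term for each temperature (8 residual degrees of freedom). P-values were adjusted by Benjamini-Hochberg over the probe sets kept, and calls needed an adjusted p under 0.05 and 2-fold. The script was tested on simulated data. The number of arrays limits the precision.

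All members were reported. They were taken by identifier alone, but this family of genes and the lists were picked with earlier results of these data known. Of 845 probe sets with a symbol, 844 matched the wheat gene table (IWGSC CS RefSeq v2.1) by gene ID. Its build differs from the study's, so no coordinates are given. Alternatives were quantile normalization, other filters on dim probe sets, raised low values, no variance trend, other photoperiod terms, unadjusted p-values and each array left out.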

Additional observations from a re-analysis of the deposited data

Results flagged for a closer look

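For 13 members the test of the difference between the cold effect at stages 2.2 to 3.0 and that at stages 1.5 and 2.0 passed its threshold (limma), with the later effect more positive in each. Of all probe sets tested, 5.9% were called higher in this test. The log2 differences were 1.45 for Ta.27192.1.S1_at (H2A-3), 1.39 for Ta.27657.1.S1_at, 2.00 for Ta.27657.12.S1_at, 1.75 for Ta.27657.14.S1_s_at, 1.51 for Ta.27657.14.S1_x_at and 1.31 for Ta.27657.7.S1_x_at, the last 5 named H2A-9. Among members without a gene name they were 1.78 for Ta.27657.11.S1_x_at, 1.69 for Ta.27657.2.S1_x_at, 1.11 for Ta.27657.4.S1_x_at, 1.47 for Ta.27657.5.S1_at, 1.25 for Ta.27657.5.S1_x_at, 1.74 for Ta.27657.9.S1_at and 1.87 for Ta.27657.9.S1_x_at. These probe sets can share transcripts, so the 13 values are not separate pieces of evidence. Without the control arrays of stage 3.0, only Ta.27657.12.S1_at and Ta.27657.9.S1_x_at were still called.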

How the results depend on the processing

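The number of members called higher in the cold at stage 3.0 (15) was 14 when each stage had its own photoperiod term, 15 under the other alternatives that left no array out, and 14 to 15 when 1 array was left out. The count of 14 members lower at stage 3.0 than at 1.5 in control anthers was 14 under each alternative that kept those control arrays, and when 1 of them was left out. At stage 2.2 the count of 2 was 1 with no filter on dim probe sets, with no variance trend and with no photoperiod term, the call left being that of Ta.27657.3.S1_at, and 1 when each stage had its own photoperiod term, the call left being that of Ta.27657.12.S1_at. The cause was not tested. For cold stage 3.0 against 1.5 the count of 0 was 1 with unadjusted p-values (Ta.27657.12.S1_at). Leaving out each array in turn gave 0 to 9 calls at stage 2.2, 5 to 12 at stage 2.5, 13 to 14 for the later minus the earlier cold effect, 0 to 1 for cold stage 3.0 against 1.5, and 13 to 15 over any control step. It gave 0 calls throughout at stages 1.5 and 2.0, over any cold step and for the photoperiod tests. Leaving out both control arrays of stage 3.0 was an alternative chosen after seeing the data. The later minus the earlier effect was then called for 2 members. In the others that had been called, its estimate fell under 2-fold, to between 0.34 and 0.98. Any control step was then called for 0 members, since the step from 2.5 to 3.0 could not be tested. Of single changes under these alternatives, 43 lost and 42 gained a call, and none that was called changed sign. The labels carry no replicate numbers. Arrays are paired by day length at each stage, but the common photoperiod term of the model takes out only the mean day-length difference. Day-length differences that change with stage or temperature stay in the residual spread. Signals of the 15 members were above the 60th percentile everywhere, while the dim H2A-3 probe set allows no statement.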
